A study of Mus musculus with 19 samples.

Results

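Conventional CD4 T cells were separated by a green reporter of interleukin-2 (IL-2), and the cells with the reporter were compared with those without it. The members are the 5 arrays titled GFP+RFP- and the 5 arrays titled GFP-RFP-, 10 of the 19 arrays in the series, chosen by title alone. All cells came from adult female mice of the C57Bl/6 background (tissue label Spleen/Lymph nodes) with the genotype Tg IL-2-GFP x FOXP3mRFP, so both groups carry both reporter alleles and neither is from a mouse without them. GFP+RFP- cells have the IL-2 reporter and lack the red reporter of Foxp3, the factor that defines regulatory T cells (Treg), and the source labels call them IL-2p T CD4(+) cells. GFP-RFP- cells lack both colours and are labelled simply as CD4(+) T cells. The labels name no treatment or stimulation and no number of cells. They do not say whether the 5 replicates of a group came from separate animals, so each p-value measures only the spread between samples. For genes that spread was pooled over all 19 arrays, Treg arrays included, so an error can be wider or narrower than these 10 arrays alone show. In sorted bulk samples fewer cells of a type and less RNA per cell cannot be told apart.

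IL-2 is made by CD4 T cells after their antigen receptor and costimulatory receptors have signalled, through the transcription factors NFAT, AP-1 and NF-kappaB. It is sensed by a receptor of alpha, beta and gamma chains (Il2ra, Il2rb and Il2rg), which signals through the kinases Jak1 and Jak3 to the factors Stat5a and Stat5b. Naive T cells, which recirculate through lymph nodes with the help of the chemokine receptor Ccr7, differ from memory cells in which cytokine genes they can switch on quickly. A contrast on the IL-2 reporter asks which other transcripts differ between conventional cells that carry it and conventional cells that do not.

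The arrays measure messenger RNA as 1-colour intensity, after a global PCR amplification of the cDNA. Levels below are log2 intensities relative to the 75th percentile of the array, so 0 is a bright probe and values near -11 are at the floor of the array. A probe counts as detected where the scanner software marked it well above background. GFP+RFP- arrays had 36.9% ± 4.29 (SD, n = 5) of probes detected and GFP-RFP- arrays 40.6% ± 2.86 (n = 5), a difference of -3.72 percentage points (exact permutation test, two-sided, p = 0.143, adjusted p = 0.238 over 2 array measures). The 75th percentile of the signal was 12750 ± 3020 and 14930 ± 2300 (exact permutation test, two-sided, p = 0.238, adjusted p = 0.238). GFP+RFP- replicate 4 was the dimmest of the 10, with 30.2% of probes detected and a 75th percentile of 7768. Over all genes, GFP+RFP- arrays correlated with GFP-RFP- arrays (median r = 0.695 over 25 pairs) about as closely as with each other (median r = 0.679 over 10 pairs).

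Of 8 tested T cell identity genes, 6 were detected on all 10 arrays and none was called, with 3 higher, 5 lower and a median difference of -0.32. Cd3d, which encodes a chain of the T cell receptor complex, was at 1.83 ± 0.53 (SD, n = 5) with the reporter and 1.48 ± 0.27 (n = 5) without it. Cd3e, another chain of that complex, differed by -2.0 ± 1.53 (SE) and Cd28, a costimulatory receptor, by -1.20 ± 1.82 (limma adjusted p = 1.00 for each), and GFP+RFP- replicate 4 was the only array that detected neither. Cd4, the co-receptor the cells are named for, was detected on all 10 arrays. Its GFP+RFP- levels were -1.86, -0.53, -1.61, -1.36 and -2.56 and its GFP-RFP- levels -1.24, -0.64, -1.75, -1.04 and -0.94. The groups overlapped, with a difference of -0.46 ± 0.90 (SE; limma adjusted p = 1.00). The other probe of Cd4, also detected on all 10 arrays, differed by -1.02 and was at -7.54 on GFP+RFP- replicate 4. Foxp3 was faint on all 10 arrays, between -8.41 and -6.89 in GFP+RFP- and between -8.50 and -7.34 in GFP-RFP- cells, and differed by 0.26 ± 1.10 (limma adjusted p = 1.00).

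Across the 20620 genes tested, 2 passed the threshold (limma with Benjamini-Hochberg adjustment over all of them, adjusted p under 0.05, 0.0097% of genes), Coq10a and Arl5c, and both were lower in GFP+RFP- cells. Genes past this threshold are called below. No gene was called higher (0%), and the smallest adjusted p among higher genes was 0.449. At an unadjusted p under 0.05 there were 1060 genes (5.14%), 426 higher (2.07%) and 634 lower (3.07%) in GFP+RFP- cells. The balance of those genes moved with the arrays in the fit and with the scaling. On the 10 arrays alone, 822 were higher and 643 lower. With the percentile taken over all probes, 650 were higher and 496 lower, and the median difference of all genes moved from -0.02 to 0.26, while the called genes were again Coq10a and Arl5c. Leaving out 1 array changed the count most without GFP-RFP- replicate 4 (12 called, 1 of them higher) and GFP-RFP- replicate 2 (10, none higher). Without GFP+RFP- replicate 2, 4 or 5 it was 7, 4 or 5, of which 0, 2 and 0 were higher, and without GFP-RFP- replicate 1 it was 1. Coq10a was among the called genes each time.

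**Figure D1:**
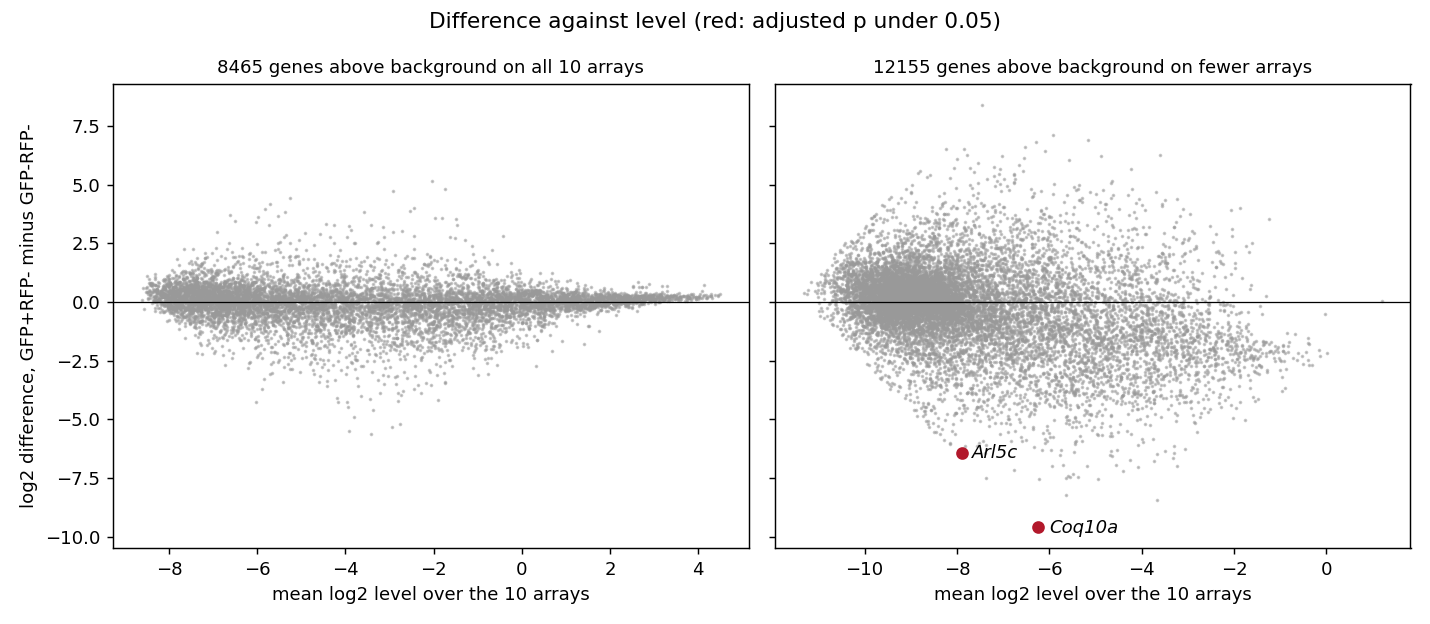
Log2 difference between GFP+RFP- and GFP-RFP- cells (y axis) against the mean log2 level over the 10 arrays (x axis), 1 point per gene, for 8465 genes detected on all 10 arrays (left) and 12155 detected on fewer (right). The 2 called genes, in red, are both on the right and both below 0, and the points on the left lie closer to 0.

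Detection set how finely a gene could be compared. The 8465 genes detected on all 10 arrays had a median standard error of 0.66 on the log2 scale, and 179 of them (2.11%) had an unadjusted p under 0.05. The other 12155 genes had a median standard error of 1.41, and 881 of them (7.25%) were under 0.05. Both called genes were of the second kind. A gene could thus be at -2 on some arrays and at the floor on others within 1 group, and most of the large differences below have that form.

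Coq10a, which encodes a mitochondrial protein that binds coenzyme Q, the electron carrier of the respiratory chain, gave the largest difference of all genes. It is read by 1 probe at chr10:127800356-127800415 on the minus strand (mm9), whose first 30 bases are shown because the strongest call of the contrast rests on it alone:

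Coq10a: tagtaacttcctgacacagagatactggct

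Its levels on GFP-RFP- arrays 1 to 5 were -1.59, -1.78, -0.16, -2.75 and -0.89, all detected. On GFP+RFP- arrays they were -10.88, -11.44, -10.51, -11.08 and -11.24, none detected. The groups were far apart, with every GFP+RFP- array at the floor. The difference was -9.60 ± 0.56 (SE; limma adjusted p = 8.78e-08), and measured against the dimmest detectable signal Coq10a was at least 188-fold lower in GFP+RFP- cells. Such a bound sets the mean of the bright group against the lowest signal that passed as detected on each dim array. Where the probe's own level there was higher, that level was used. The bound compares means, makes no allowance for the spread between arrays and applies only to the processing used here.

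Coq10a was bright in GFP-RFP- cells and in no other population of the series. It was at -10.49 ± 0.59 (n = 5, detected on 0) in GFP-RFP+ cells and at -9.63 ± 1.28 (n = 4, detected on 1) in GFP+RFP+ cells, the Treg populations of the series. Between the Treg populations the difference by reporter was 0.86, and the test of that difference against the one in conventional cells gave -10.46 (limma interaction, adjusted p = 8.57e-06). Coq10b, which encodes the related protein, differed by 0.75 ± 1.41 (limma adjusted p = 1.00) and was detected on 2 GFP+RFP- and 4 GFP-RFP- arrays. Cs, the citrate synthase gene beside Coq10a on the chromosome, differed by -1.01 ± 2.27 (limma adjusted p = 1.00). Coq10a kept its direction and its call with any 1 array left out, with differences between -9.93 and -9.28. With normexp background and with a common floor the difference was smaller, -6.04 and -6.15, and the call was kept (limma adjusted p = 1.59e-06 and 3.25e-08).

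Arl5c, a member of the ARF-like family of small GTPases, was the other called gene, and its probes did not agree. The called probe lies at chr11:97850952-97851011 and the other at chr11:97855520-97855579, both on the minus strand (mm9), and their first 30 bases are shown because they read different parts of the locus and gave opposite differences:

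Arl5c called probe: cccactcctctgaaatgtcaaggatctata
Arl5c other probe: tctgagccttctggcacctgggacatgact

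The called probe was detected on all GFP-RFP- arrays, at -3.55, -5.38, -8.23, -2.94 and -3.33, and on no GFP+RFP- array, at -10.85, -11.39, -10.97, -11.12 and -11.23. The groups did not overlap, and GFP-RFP- replicate 3 was the faintest of its group. The difference was -6.43 ± 0.91 (SE; limma adjusted p = 0.0197), at least 19.8-fold lower in GFP+RFP- cells. The other probe was detected on 3 GFP+RFP- and 0 GFP-RFP- arrays, with means of -7.61 ± 3.90 and -10.37 ± 0.83 (n = 5 each). Its GFP+RFP- levels of -10.67, -10.47, -1.18, -6.93 and -8.82 show that replicate 3 was bright, replicates 4 and 5 were faint but detected, and replicates 1 and 2 were not detected. With the mean of both probes, the difference of Arl5c was -1.83 (limma adjusted p = 0.93). The call was also lost when GFP-RFP- replicate 1 (limma adjusted p = 0.105), replicate 5 of that group (0.0688) or replicate 3 of the GFP+RFP- group (0.0510) was left out, and on the 10 arrays alone (limma adjusted p = 0.170). With normexp background and with a common floor the difference was -3.25 and -3.03, and the call was lost as well (limma adjusted p = 0.108 and 0.303). It was also lost with a slide block (limma adjusted p = 0.0512), a scan day block (0.0780), a covariate for the share of probes detected (0.0791) and a threshold of 1 on the log2 difference (0.0806). The relatives Arl5a and Arl5b differed by -0.03 ± 2.14 and -0.82 ± 0.82 (limma adjusted p = 1.00 for each).

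**Figure D2:**
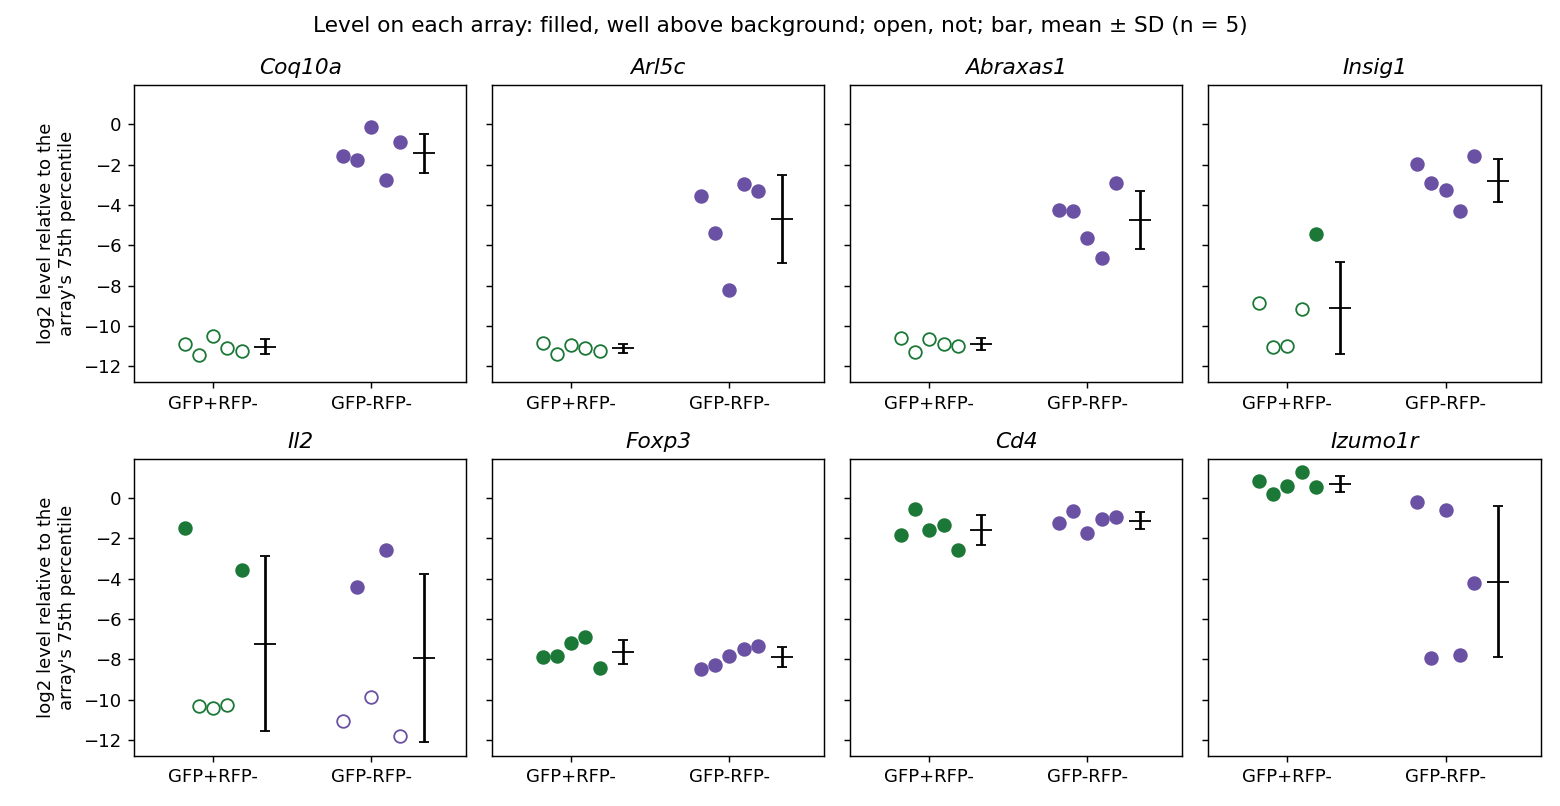
Log2 level on each of the 5 GFP+RFP- (green) and 5 GFP-RFP- (purple) arrays for 8 genes, with the mean and SD beside the points. Filled points were well above background, and Coq10a, Arl5c and Abraxas1 are open on all GFP+RFP- arrays and filled on all GFP-RFP- arrays, whereas Il2 is filled on 2 arrays of each group.

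Among genes lower in GFP+RFP- cells, those with a usual symbol (no probe, transcript or clone name) detected on all 5 GFP-RFP- arrays were ranked by p. After the 2 called genes, none of these passed the threshold. Abraxas1, a subunit of a BRCA1-containing DNA repair complex, was not detected on any GFP+RFP- array (-10.61, -11.31, -10.65, -10.89 and -11.00) and was detected on every GFP-RFP- array (-4.27, -4.28, -5.64, -6.63 and -2.93). The groups did not overlap, and the difference was -6.14 ± 0.98 (limma adjusted p = 0.0615), at least 18.9-fold. Its other 2 probes were detected on no GFP+RFP- array and on 1 and 0 GFP-RFP- arrays, and differed by -0.81 and 0.08. On the 10 arrays alone Abraxas1 passed the threshold (limma adjusted p = 0.0242). With normexp background and with a common floor its difference was smaller, -2.79 and -2.83 (limma adjusted p = 0.205 and 0.518). Insig1, which holds the sterol sensor of cholesterol synthesis in the endoplasmic reticulum, was at -8.88, -11.05, -11.01, -9.14 and -5.45 in GFP+RFP- and at -1.95, -2.93, -3.26, -4.29 and -1.58 in GFP-RFP- cells. Every GFP-RFP- array was above every GFP+RFP- array, of which only replicate 5 detected the gene, and the difference was -6.30 ± 1.12 (limma adjusted p = 0.108). Without that replicate Insig1 passed (limma adjusted p = 0.0232).

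Hprt, a purine salvage enzyme often used as a reference transcript, had the same form. Its levels were -7.69, -11.03, -11.00, -10.51 and -7.28 in GFP+RFP- cells, where 2 arrays detected it, and -4.67, -6.72, -5.68, -4.79 and -3.10 in GFP-RFP- cells, where all 5 did. The groups did not overlap, and the difference was -4.51 ± 0.82 (limma adjusted p = 0.121). Gapdh, another common reference transcript and a glycolytic enzyme, was detected on all 10 arrays and differed by 0.36 ± 0.48 (limma adjusted p = 1.00).

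Also lower without passing were Cdkn2d, a cyclin-dependent kinase inhibitor, with -6.31 ± 1.29 (limma adjusted p = 0.240), and Atp6ap1, an accessory subunit of the vacuolar proton pump, with -6.37 ± 1.26 (0.210). Both probes of Atp6ap1 were detected on 2 GFP+RFP- and 5 GFP-RFP- arrays, and the other probe differed by -4.44. Atp6ap1 passed without GFP+RFP- replicate 3 (limma adjusted p = 0.00128), the replicate in which it was at -2.13 and within the GFP-RFP- range. Vipr1, a receptor for vasoactive intestinal peptide, differed by -4.74 ± 1.01 (limma adjusted p = 0.316). Ngp, a neutrophil granule protein that T cells are not known for, was at -10.92, -11.48, -11.04, -11.05 and -4.29 in GFP+RFP- and at -1.66, -0.13, -1.42, -2.15 and -2.18 in GFP-RFP- cells, a difference of -8.25 ± 1.82 (limma adjusted p = 0.399). All GFP-RFP- arrays were bright for it, and in GFP+RFP- cells only replicate 5 detected it.

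On the other side, higher in GFP+RFP- cells, genes with a usual symbol detected on all 5 GFP+RFP- arrays were ranked by p. Among those of smallest p, Zdhhc2 showed the same direction with both of its probes. Zdhhc2 encodes an enzyme that attaches palmitate to proteins. Its levels were -0.38, -1.33, -0.82, 1.39 and -1.57 in GFP+RFP- and -7.74, -4.98, -2.49, -3.46 and -7.76 in GFP-RFP- cells. All GFP+RFP- arrays lay above all GFP-RFP- arrays, and the difference was 4.74 ± 1.25 (limma adjusted p = 0.536). Its other probe, detected on 5 GFP+RFP- arrays and 1 GFP-RFP- array, differed by 5.30.

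Slbp, the protein that binds the stem-loop of histone transcripts, was at -3.23, -4.79, -2.22, -0.52 and -3.63 in GFP+RFP- and at -10.64, -11.73, -11.13, -3.05 and -11.91 in GFP-RFP- cells. All 5 GFP+RFP- arrays detected it, and GFP-RFP- replicate 4 was the only array of its group that did. The difference was 6.82 ± 1.71 (limma adjusted p = 0.536), the other probe of Slbp differed by 3.51, and without GFP-RFP- replicate 4 the gene passed (8.48, limma adjusted p = 0.0316). Smox, an enzyme that oxidizes spermine, differed by 2.47 ± 0.66 (limma adjusted p = 0.537) and Ubn1, a subunit of a histone chaperone, by 3.04 ± 0.99 (0.750). Both were detected on all 10 arrays, with every GFP+RFP- array above every GFP-RFP- array. Ager, Zfp354c, Matn2, Slc37a1 and Antxr2 completed the genes of smallest p on that side among those detected on all 5 GFP+RFP- arrays. Their differences lay between 3.27 and 6.28 and their limma adjusted p-values between 0.553 and 0.650.

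Il2, the gene the green reporter stands for, was detected on 2 of 5 arrays of each group. Its probe lies at chr3:37020012-37020071 on the minus strand (mm9). Its first 45 bases are shown because the reporter can be set against them, with the stop codon of the reading frame in capitals:

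Il2: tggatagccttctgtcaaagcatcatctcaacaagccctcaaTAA

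Il2 was at -1.51, -10.31, -10.43, -10.28 and -3.58 on the GFP+RFP- arrays and at -11.05, -4.42, -9.87, -2.57 and -11.80 on the GFP-RFP- arrays. Replicates 1 and 5 were high among GFP+RFP- cells and replicates 2 and 4 among GFP-RFP- cells, so the groups overlapped along their whole range. The difference was 0.72 ± 1.95 (SE; limma adjusted p = 1.00), with a 95% interval from -3.41 to 4.85. The interval is wide on both sides of 0.

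Of 25 cytokine genes on the list that holds Il2, 14 were tested and none was called. Of these, 9 were higher with the reporter and 5 were lower, and the median difference was 0.79 against -0.02 for all genes. With 1 array left out that median ranged from 0.10, without GFP+RFP- replicate 5, to 1.49, without GFP+RFP- replicate 4. Only 4 of these genes were detected on all 10 arrays, 3 of them lower, with a median of -0.26. Il3, Il4, Il5, Il6, Il10, Il13, Il17a, Il17f, Il21, Ccl4 and Csf2 did not reach detection on enough arrays to be tested. Tnfsf11, which encodes the cytokine RANKL, was detected on all 5 GFP+RFP- arrays (-4.42, -5.76, -1.75, -8.35 and -3.92) and on 1 GFP-RFP- array (-5.98, -11.84, -11.26, -11.75 and -12.04). Only GFP-RFP- replicate 1 reached into the range of the GFP+RFP- arrays, and the difference was 5.73 ± 1.86 (limma adjusted p = 0.755).

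The chemokine gene Xcl1 was detected on 4 GFP+RFP- and 2 GFP-RFP- arrays and differed by 3.98 ± 1.81 (limma adjusted p = 0.969). Lta, which encodes lymphotoxin alpha, was detected on 5 and 3 arrays and differed by 3.09 ± 2.07 (limma adjusted p = 1.00). Tnf went the other way, with -4.32 ± 2.85, and Ifng, the interferon-gamma gene, differed by 1.06 ± 2.29 (limma adjusted p = 1.00 for each). Cd40lg and Ltb, cytokines of the tumour necrosis factor family, were detected on all 10 arrays and differed by -0.94 ± 1.45 and -0.32 ± 0.67 (limma adjusted p = 1.00 for each).

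On the receiving side, all 21 genes of the IL-2 receptor and STAT5 list were tested and none was called. With the reporter 15 of the 21 lay lower, for a median of -1.09. Detected on all 10 arrays were 7 of these genes, 4 lower and 3 higher, with a median of -0.04. Stat5a was at -10.66, -11.52, -9.71, -9.45 and -4.77 in GFP+RFP- and at -4.48, -10.23, -3.78, -2.68 and -2.79 in GFP-RFP- cells. It was detected on 1 and 4 arrays, and the groups overlapped through GFP-RFP- replicate 2, with a difference of -4.43 ± 1.77 (limma adjusted p = 0.919). Il4ra, the interleukin-4 receptor chain, differed by -0.95 ± 0.43 (limma adjusted p = 0.969).

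Among the receptor chains of IL-2, Il2rb was detected on all 10 arrays and differed by 0.96 ± 0.90, Il2rg on 4 and 5 arrays by -2.28 ± 2.92, and Il2ra, the chain that marks activated cells and Treg, on 1 array of each group by 0.64 ± 1.85 (limma adjusted p = 1.00 for each). GFP+RFP- replicate 4, the dimmest array, had a list median level of -9.45, while the other 4 GFP+RFP- arrays lay between -4.33 and -2.34 and the GFP-RFP- arrays between -3.21 and -2.10. Without replicate 4 the median difference of the list was -0.56, with 12 of 21 genes lower.

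The 25 genes of the T cell receptor complex and its first signalling steps were all tested, none was called, and the median difference was 0.01, with 13 higher and 12 lower. Against the median of all genes, that value was between -0.20 and 0.03 over the scalings tried and so changed sign with the scaling. Of the 25 genes, 18 were detected on all 10 arrays. Cd3g, a chain of the receptor complex, differed by 0.01 ± 0.48, the adaptor Lat by 0.25 ± 0.49 and the kinase Prkcq by 0.01 ± 0.38 (limma adjusted p = 1.00 for each). The exception in level was Rasgrp1, which couples the receptor to Ras. It was at -4.79, -5.24, -10.97, -11.10 and -3.36 in GFP+RFP- and at -3.94, -2.85, -1.96, -2.52 and -1.30 in GFP-RFP- cells, where replicates 3 and 4 of the first group were at the floor. The difference was -4.58 ± 1.61 (limma adjusted p = 0.800), and the other probe of Rasgrp1 was detected on none of the 10 arrays.

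Further along the pathway, 29 genes of calcium, NFAT, NF-kappaB and AP-1 factors had a median of -0.26 (13 higher, 16 lower) and 17 immediate early genes a median of -0.53 (4 higher, 13 lower), and none was called. The factors Nfatc1 and Nfatc2, which bind the Il2 promoter in activated cells, differed by 0.43 ± 2.37 and 0.85 ± 1.84 (limma adjusted p = 1.00 for each). Nr4a1, an early gene of receptor signalling, differed by -3.78 ± 1.92 and Ier5 by -2.66 ± 1.56 (limma adjusted p = 0.999 and 1.00). The 14 costimulation genes had a median of -0.90, with 10 lower, and the 18 genes of co-inhibition and anergy a median of 0.31, with 11 higher, again with none called. With 1 array left out these medians ranged from -1.02 to 0.11 and from -0.06 to 0.98, so neither kept its sign each time. The median of the immediate early genes ranged from -1.39, without GFP-RFP- replicate 5, to -0.15, without GFP+RFP- replicate 4. That of the calcium and factor list ranged from -0.50, without GFP+RFP- replicate 5, to -0.05, without GFP+RFP- replicate 2.

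Genes of naive and recirculating T cells were lower on balance in GFP+RFP- cells, though none was called. Of 18 tested, 16 were lower, with a median of -1.64 against -0.02 for all genes, of which 51.3% were lower. Groups did not overlap for 3 of the 18 genes, all lower in GFP+RFP- cells, against 0.703% of all genes in that direction. Relative to all genes the median stayed between -1.62 and -1.46 over the scalings tried.

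Treml2, a receptor of the TREM family, was at -5.31, -8.19, -4.88, -7.45 and -5.52 in GFP+RFP- and at -2.33, -1.64, -1.99, -1.44 and 0.63 in GFP-RFP- cells. It was detected on all 10 arrays, the groups did not overlap, and the difference was -4.91 ± 1.46 (limma adjusted p = 0.607). Its other probe was detected on 0 and 2 arrays and differed by -2.66. Igfbp4, which encodes an insulin-like growth factor binding protein found in naive T cells, was at -9.60, -2.84, -5.83, -9.38 and -3.88 in GFP+RFP- and at -0.18, -2.67, 0.10, -0.98 and -3.52 in GFP-RFP- cells. The groups met at GFP+RFP- replicate 2 and GFP-RFP- replicate 5, and the difference was -4.85 ± 1.17 (limma adjusted p = 0.526).

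Ccr7, the chemokine receptor that brings T cells into lymph nodes, was at -3.78, -10.15, -3.96, -9.89 and -4.42 in GFP+RFP- and at -2.76, -2.32, -2.54, -3.58 and -3.03 in GFP-RFP- cells. All GFP+RFP- arrays were lower, replicates 2 and 4 by far the most, and the difference was -3.59 ± 1.84 (limma adjusted p = 1.00). Actn1, an actin crosslinker, was at -11.14 on GFP+RFP- replicate 4 and between -2.91 and 0.20 on the other GFP+RFP- arrays, and lay between 0.47 and 1.59 in GFP-RFP- cells. The groups did not overlap, and the difference was -3.66 ± 2.56 (limma adjusted p = 1.00).

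None of the factors that hold T cells in a naive state was called. Tcf7 was detected on all 10 arrays, between 2.23 and 2.69 in GFP+RFP- and between 2.29 and 2.57 in GFP-RFP- cells, and differed by -0.03 ± 0.78. Lef1 differed by -0.68 ± 1.45, Klf2, which drives S1pr1, by -1.88 ± 1.39, and Satb1, a chromatin organizer, by -1.19 ± 0.62 (limma adjusted p = 1.00 for each of the 4). For Satb1 only GFP-RFP- replicate 4, at 0.22, reached into the GFP+RFP- range of -1.46 to 0.77.

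The size of this median rested in part on 1 array. GFP+RFP- replicate 4 had a median level of -6.64 over the 18 genes, and the other 4 GFP+RFP- arrays lay between -2.14 and -0.91, all below the GFP-RFP- arrays, which lay between -0.80 and -0.05. Without replicate 4 the median difference was -0.90, with 14 of 18 genes lower. Among the 10 genes of the list detected on every array, 9 were lower, with a median of -0.69. The median moved with detection, whose part in the result was not tested.

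**Figure D3:**
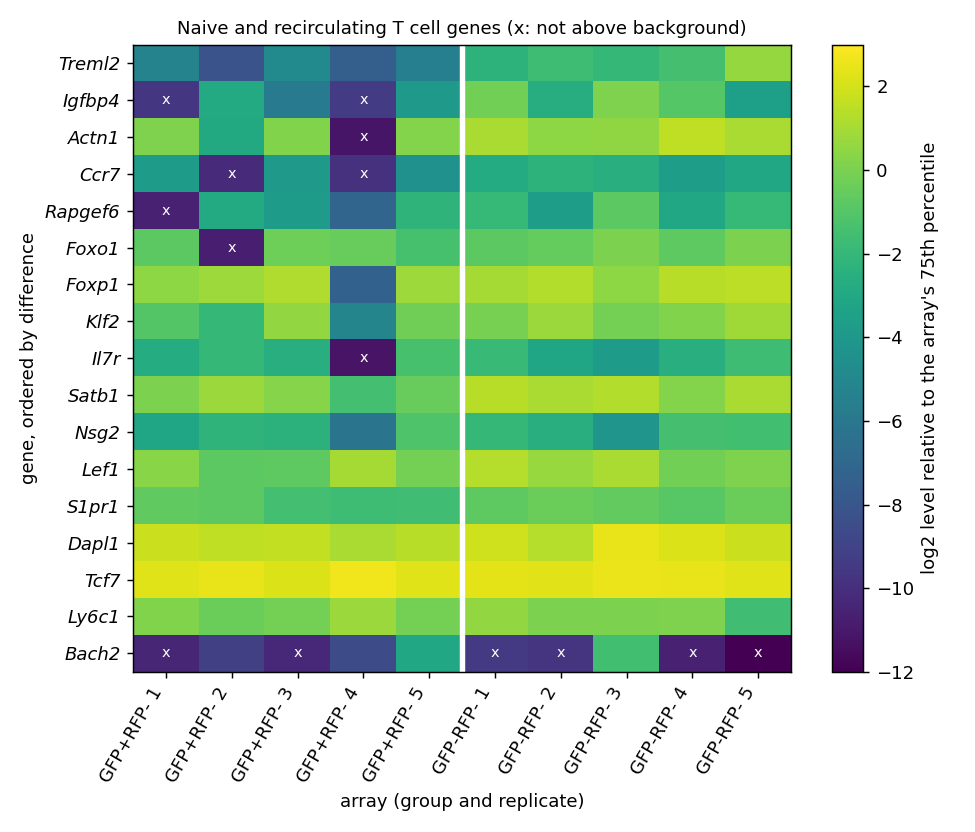
Log2 level of naive and recirculating T cell genes (rows, ordered by difference) on the 5 GFP+RFP- and 5 GFP-RFP- arrays (columns), with a cross where the probe was not well above background. GFP+RFP- replicate 4 is dark for Actn1, Ccr7 and Il7r, and Tcf7 is bright on all 10 arrays.

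Effector-memory genes leaned the other way by less. Of 22 tested, 15 were higher in GFP+RFP- cells, with a median of 0.43 (0.15 to 0.42 with 1 array left out), and none was called. Cd44, the adhesion receptor that marks memory and activated cells, was at -1.66, -0.56, -1.49, -0.07 and -0.39 in GFP+RFP- and at -3.19, -0.58, -2.09, -1.03 and -2.71 in GFP-RFP- cells. The ranges overlapped, and the difference was 1.09 ± 0.85 (limma adjusted p = 1.00). The annexins split, with -3.97 ± 1.30 for Anxa1 and 3.51 ± 1.54 for Anxa2 (limma adjusted p = 0.777 and 0.969). Anxa2 was detected on 3 GFP+RFP- and no GFP-RFP- arrays, at least 3.22-fold higher by group means. Its groups overlapped, with GFP+RFP- replicates 1 and 4 at the floor (-10.99 and -11.21). The memory-associated calcium-binding proteins S100a4 and S100a6 were detected on all 10 arrays and differed by 0.47 ± 0.48 and 0.21 ± 0.37 (limma adjusted p = 1.00 for each).

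The lists of helper lineages held no called gene. The median was 0.34 for 13 Th1 genes, 0.24 for 9 Th2 genes and -0.11 for 6 Th17 genes, the last with a sign relative to all genes that changed with the scaling. With 1 array left out the Th1 median ranged from 0.02, without GFP-RFP- replicate 5, to 0.71, without GFP-RFP- replicate 2, and the Th2 median from 0.14, without GFP-RFP- replicate 1, to 0.52, without GFP+RFP- replicate 4. The Th17 median ranged from -0.51 to 0.07 and did not keep its sign. Cxcr3, a chemokine receptor of Th1 cells, was detected on 4 GFP+RFP- and 2 GFP-RFP- arrays and differed by 4.91 ± 2.59 (limma adjusted p = 1.00). The lineage factors Tbx21 and Gata3, of Th1 and Th2 cells, were each detected on all 10 arrays and differed by 0.73 ± 0.94 and 0.50 ± 1.28 (limma adjusted p = 1.00 for each).

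Of 15 follicular helper T cell genes 10 were higher, with a median of 0.60 (0.38 to 1.10 with 1 array left out). Tox2, a nuclear factor of these cells, was at -3.80, -9.49, -9.74, -1.06 and -3.47 in GFP+RFP- and between -12.05 and -9.59 in GFP-RFP- cells, where no array detected it. Replicates 1, 4 and 5 of the GFP+RFP- cells were high, and the difference was 5.28 ± 1.38 (limma adjusted p = 0.536), at least 15.4-fold. The other probe of Tox2 was detected on 1 and 0 arrays and differed by 0.77. Pou2af1, a transcriptional coactivator best known in B cells, differed by 5.05 ± 1.86 (limma adjusted p = 0.859). Bcl6, the defining factor of follicular helper cells, differed by 2.74 ± 2.04, and Pdcd1, which encodes the inhibitory receptor PD-1, by 2.18 ± 3.09 (limma adjusted p = 1.00 for each).

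Genes of the Treg signature were also higher on balance, 15 of 21 tested, with a median of 1.07. Both groups were sorted as lacking the Foxp3 reporter, and Foxp3 itself differed by less than its error. The Foxp3 probe separated sorted Treg poorly from conventional cells, so that difference cannot tell whether Treg content differed. Its level ran from -7.33 to -5.49 on Treg arrays with the IL-2 reporter and from -8.64 to 0.25 on those without it. Both spans reach into the GFP+RFP- range of -8.41 to -6.89. The 5 genes of the Treg marker list, all of which the signature also holds, were higher too, with a median of 0.64 (0.36 to 1.71 with 1 array left out) and none called. Of these, Ikzf2, the Treg-associated factor Helios, differed by 3.65 ± 2.16 and was detected on 3 GFP+RFP- arrays and 1 GFP-RFP- array. Gpr83, a receptor found on Treg, differed by 2.43 ± 1.47 and was detected on 1 and 0 arrays (limma adjusted p = 1.00 for each). The marker list summed to 0.0924 to 1.23 in GFP+RFP- and 0.0192 to 0.666 in GFP-RFP- cells, on a linear scale relative to the 75th percentile, and its part in the result was not tested. Izumo1r, the folate receptor FR4 found on Treg and on anergic and follicular helper T cells, was at 0.84, 0.18, 0.58, 1.28 and 0.53 in GFP+RFP- and at -0.21, -7.95, -0.61, -7.81 and -4.20 in GFP-RFP- cells. Every GFP+RFP- array was above every GFP-RFP- array, of which replicates 1 and 3 came close, and the difference was 4.84 ± 1.89 (limma adjusted p = 0.896). Tnfrsf18, the receptor GITR, went the other way with -3.47 ± 1.54 (limma adjusted p = 0.969), and Ctla4, an inhibitory receptor, differed by 0.43 ± 1.98 (limma adjusted p = 1.00). Among the 9 genes of this list detected on all 10 arrays, 3 were lower and the median was 0.26. With 1 array left out the median of the whole list was between 0.31, without GFP+RFP- replicate 2, and 1.45, without GFP+RFP- replicate 4.

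Outside the T cell lists, genes of the citrate cycle, the respiratory chain and protein export were more often lower than higher, and those of glycolysis more often higher. Of 22 citrate cycle genes 17 were lower, with a median of -1.03, and of 68 respiratory chain and ATP synthase genes 46 were lower, with a median of -0.39. Of 36 genes of protein export and the endoplasmic reticulum 27 were lower, with a median of -0.81. None of these genes was called. Suclg2, a subunit of succinate-CoA ligase, differed by -4.38 ± 1.52, Ndufs8, a subunit of complex I, by -4.92 ± 2.10, and Spcs1, of the signal peptidase complex, by -5.51 ± 2.12 (limma adjusted p = 0.793, 0.950 and 0.896).

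These shifts too moved with GFP+RFP- replicate 4. Without it the medians were -0.32 for the citrate cycle, -0.26 for the respiratory chain and -0.08 for protein export. The respiratory chain median was lowest, at -0.99, without GFP+RFP- replicate 5. Among genes detected on all 10 arrays the median was -0.73 for the citrate cycle (8 of 9 lower), -0.14 for the respiratory chain (13 of 24 lower) and 0.04 for protein export (7 of 15 lower). The part of detection in these medians was not tested. Genes of cytosolic ribosomal proteins, which are bright on every array, differed little. Of 85 tested, 53 were higher, the median was 0.07, and relative to all genes it lay between -0.23 and 0.09 over the scalings, changing sign. Of 15 genes of glycolysis and glucose uptake 10 were higher, with a median of 0.16 whose sign relative to all genes changed with the scaling. Tpi1, a glycolytic enzyme, differed by 3.48 ± 1.34 (limma adjusted p = 0.896), and Slc2a1, the glucose transporter GLUT1, differed by -3.38 ± 1.38 (limma adjusted p = 0.942).

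**Figure D4:**
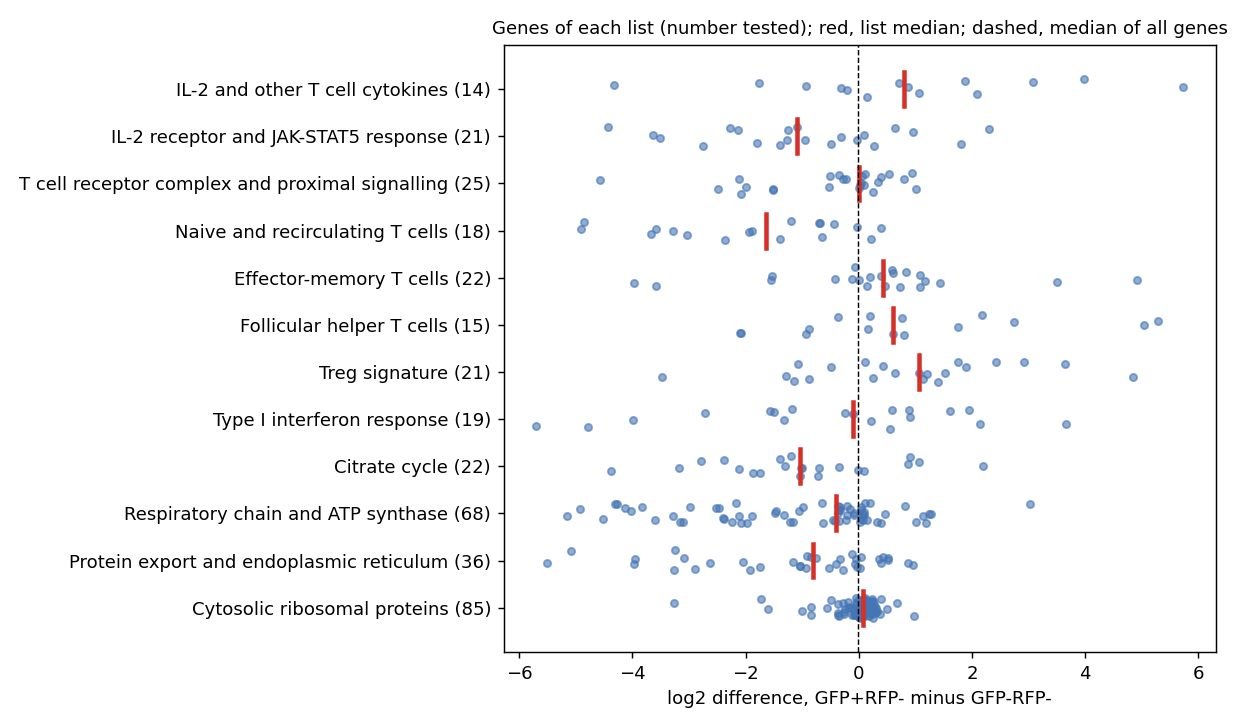
Log2 difference between GFP+RFP- and GFP-RFP- cells (x axis) for the genes of 12 lists (rows, number tested in brackets), with the list median in red and the median of all genes dashed. The naive list has the lowest median, at -1.64, and the Treg signature the highest, at 1.07, while every list has genes on both sides of 0.

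Of 19 type I interferon response genes 9 were higher and 10 lower, with a median of -0.11 that, relative to all genes, lay between -0.29 and 0 over the scalings and, with 1 array left out, ran from -0.57 to 0.38. Ifit2, an interferon-induced antiviral protein, was at -3.84, -11.53, -6.73, -11.23 and -4.12 in GFP+RFP- and at -2.07, -0.51, -2.86, -1.68 and -1.81 in GFP-RFP- cells. The groups did not overlap, GFP+RFP- replicates 2 and 4 were at the floor, and the difference was -5.70 ± 1.61 (limma adjusted p = 0.590). Ifi27l2a, another gene of the list, differed by 0.91 ± 0.37 (limma adjusted p = 0.944). From this list 6 genes were detected on all 10 arrays, 5 of them higher, with a median of 0.75. Of 29 cell cycle genes 17 were lower, with a median of -0.84 and none called. With 1 array left out that median ranged from -1.09, without GFP-RFP- replicate 2, to -0.33, without GFP-RFP- replicate 4. Top2a, the topoisomerase of dividing cells, was detected on no GFP+RFP- array and on 3 GFP-RFP- arrays, with a difference of -4.52 ± 1.81 (limma adjusted p = 0.919).

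Detection alone told the groups apart for few genes. Of the genes tested, 8465 were detected on all 10 arrays, 19 on no GFP+RFP- and all GFP-RFP- arrays (0.0921%) and 3 on all GFP+RFP- and no GFP-RFP- arrays (0.0145%). The 3 genes were Igsf10, Mid2 and Slc10a4, named after their values were seen. They were faint where detected, with GFP+RFP- means of -8.09, -8.81 and -8.26, and were at least 2.58-fold, 1.57-fold and 2.19-fold higher (limma adjusted p = 0.793, 0.998 and 1.00). Groups did not overlap for 349 genes higher (1.69%) and 145 lower (0.703%) in GFP+RFP- cells. With the percentile over all probes, the genes detected on all 10 arrays gave 22 in each direction, against 169 higher and 64 lower in the scaling used here.

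**Figure D5:**
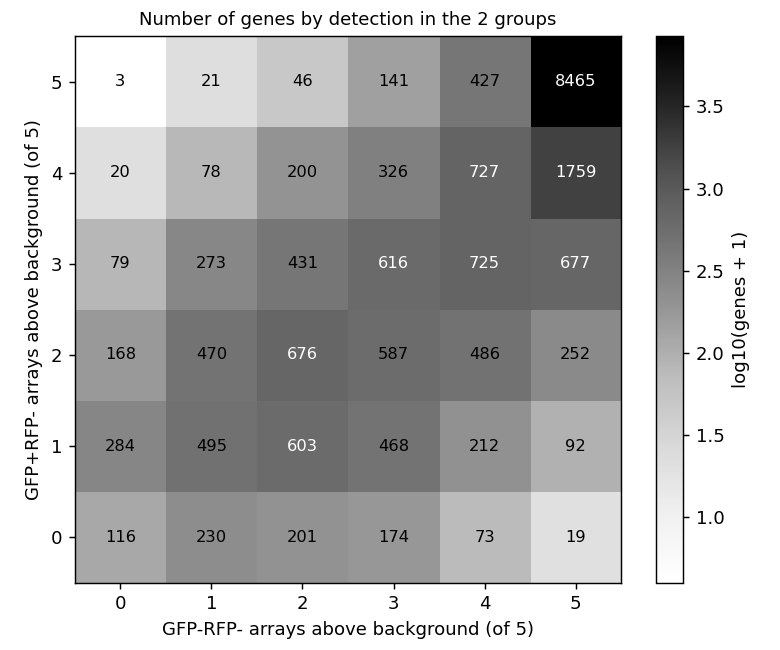
Number of genes by how many of the 5 GFP+RFP- arrays (y axis) and of the 5 GFP-RFP- arrays (x axis) were well above background, with the shade on a log10 scale. The corner of full detection holds 8465 genes, and the corners of detection in 1 group only hold 19 and 3.

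Markers of other cells were present on both sets of arrays. The myeloid list was summed on a linear scale relative to the 75th percentile of each array, and gave 6.65 to 12.6 in GFP+RFP- and 6.04 to 8.06 in GFP-RFP- cells. Itgam was bright in both (2.98 ± 0.40 and 2.69 ± 0.14) and made up most of that sum. Csf1r was at -1.11 ± 0.44 and -0.85 ± 0.38, and Itgax was detected on no array. Lyz2, at -6.92 ± 1.79 and -7.70 ± 3.82, differed by 0.78 ± 1.72. The B cell list summed to 0.172 to 2.13 and 0.333 to 1.29, and the NK and CD8 T cell list to 0.101 to 0.676 and 0.445 to 1.17, with Cd8b1 detected on no array. Of the erythroid and platelet list 1 of 6 genes was tested, Hba-a1, a globin gene, which was at 0.53 ± 2.47 with the reporter and 2.31 ± 0.60 without it. None of these markers was called, and their part in the differences above was not tested.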

How the data were processed

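The comparison, and with it the members, and the gene lists were chosen with earlier results of these data known, and the arrays of each group were then taken by title. Per the labels' protocols, mRNA-derived cDNA was amplified by global PCR, labelled with Cy3 and hybridized to whole mouse genome arrays. The scanner files deposited by the authors hold linear intensity values from Agilent Feature Extraction 10.7.3.1, per the submitters' processing notes. The deposited series table, log2 values whose normalization the labels do not name, served as an alternative.

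Outlier spots were left out (3296 over the 19 arrays, control spots aside) and repeated spots averaged. Of 55681 probes, 27235 were named by RefSeq accession and 28446 keep the name in the files. Coordinates are those of the files (mm9), and no annotation of that build was used here, so the transcript part under a probe is not given. Log2 processed signal was centred on each array's 75th percentile over the 6612 probes above background on all 19 arrays. A filter of 4 or more arrays above background left 28101 probes, of which the brightest stood for each gene.

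One limma model (limma 3.58.1, R 4.3.3, data.table package, version 1.17.8) of all 4 groups shared its spread over 19 arrays, with empirical Bayes moderation and Benjamini-Hochberg adjustment. An adjusted p of 1.00 is rounded. The number of arrays limits the precision. The script was tested on simulated data. Figures used Python 3.11.15, pandas 2.3.3 and matplotlib 3.10.9.

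Named were Il2, Foxp3, Cd4 and, per direction, the called genes. Also named, per direction, were uncalled genes with a usual symbol, those of smallest p detected on all 5 arrays of the higher group. Up to 2 genes of smallest p per list were added. Others (such as Coq10b, Cs, Ccr7, Actn1, Tcf7, Xcl1, Tnf, Cd3g, Gapdh and the lineage factors) were chosen after their values were seen. Some genes that the rule or the lists hold are not reported here by name. Alternatives covered scaling, background, filter, probes, arrays, slide, scan day, weights and the replicate number. Deviations of same-numbered arrays of the 2 groups correlated weakly (-0.07 to 0.07, against -0.06 to 0.06 for other numbers). Still, 5 of the 10 arrays correlated best with their own number, and same-numbered arrays shared a slide. The main model did not take the numbers as pairs, and a replicate block was run as an alternative.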

Additional observations from a re-analysis of the deposited data

Results flagged for a closer look

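In 46 sets of 5 arrays (the array measures and the genes given array by array), 4 had 1 array standing apart from the other 4 by Dixon's test. Chance gives about 1 in 20 only for normally distributed values. Many of these levels split between detected and floor, and most of the genes were named by their values, so that rate may not hold here. Ngp was at -4.29 on GFP+RFP- replicate 5, and between -11.48 and -10.92 on the others. Slbp was at -3.05 on GFP-RFP- replicate 4, against -11.91 to -10.64, and Tnfsf11 at -5.98 on GFP-RFP- replicate 1, against -12.04 to -11.26. Stat5a was at -10.23 on GFP-RFP- replicate 2, against -4.48 to -2.68. In the first 3 cases 1 array detected a gene that the others of its group did not, and in the last 1 array missed a gene that the others had.

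For Coq10a the difference by reporter was itself different between conventional cells and Treg, by -10.46 (limma interaction, adjusted p = 8.57e-06), from -9.60 in conventional cells and 0.86 in Treg.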

How the results depend on the processing

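The count of 2 called genes stayed at 2 with the 75th percentile over all probes, median centring, quantile normalization, the series table, no filter, a filter on 5 of the 10 arrays, the trended robust prior and, with another gene beside Coq10a, the mean of a gene's probes. It also stayed at 2 with median centring over all probes, chosen after seeing the data. It was 5 with normexp background and 5 with a common floor, each with Coq10a and without Arl5c, and 9 with array weights. It was 0 over the 8601 genes with any probe detected on all 10 arrays (223 at an unadjusted p under 0.05), more than the 8465 whose brightest probe was, and Coq10a and Arl5c are not tested there. It was 0 in limma fits within each of slides 1, 2 and 3 (937, 1493 and 2162 at an unadjusted p under 0.05). Slides 1 and 2 hold 2 arrays of each group. Slide 3 holds 1 of each, so its spread came from 2 arrays of GFP-RFP+ cells (1 residual degree of freedom), and the lone arrays are assumed to vary like those. It was 1, Coq10a, with the slide block, the scan day block, the detected percentage as a covariate, a threshold of 1 on the log2 difference and the replicate block on the 10 RFP- arrays. The replicate block on all 19 arrays gave 3 and the 10 arrays alone gave 3, in both cases with Coq10a and without Arl5c. With 1 array left out it was between 1 and 12, highest without GFP-RFP- replicate 4 and 10 without GFP-RFP- replicate 2, and Coq10a was among the called genes each time. Within slides Coq10a differed by -9.82, -9.0 and -10.35 (limma adjusted p = 0.0634, 0.0766 and 0.307), the last from 1 array against 1. The cause of the other changes was not tested.

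The difference in percent of probes detected was between -4.77 and -2.05 with 1 array left out and -2.53 with the looser detection flag, and that in the 75th percentile between -2990 and -927. With the replicate number as a block, sign-flip permutation gave p = 0.0625 and 0.188. The first is the smallest p that 5 pairs allow, with detection lower in GFP+RFP- cells in all 5, so this test could not reach 0.05. With the other alternatives neither passed 0.05. No fit was run without arrays under 30% detected, since none of the 10 was that low. Of 4315 alternative values for the 134 genes followed singly, 16 newly passed the threshold, 19 no longer did and 0 reversed a call. Signal over background limits the 12155 genes not detected on every array.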
